A study of Mus musculus with 70 samples.

Results

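The liver of male C57BL/6 (WT) offspring was followed over a day in the 16 mice of the 4-week Ctr group, of 70 mice in the series. The rule that picks these mice uses their labels and no measured value: they are the Ctr libraries of the 4-week count table. Their dams had been fed a control chow (Ctr) before mating and through pregnancy, all dams and litters received chow after delivery, and the pups were weaned onto chow. Livers were collected once per mouse at 6 zeitgeber times (ZT, hours after lights on, in a cycle of 12 h light and 12 h dark), with 3 mice each at ZT1, ZT5, ZT17 and ZT21 and 2 mice each at ZT9 and ZT13. Each time point is therefore a different set of mice, and since the study's methods spread litters at random over the time points, mice of different time points may share a litter. The question was which genes followed a 24 h rhythm in these livers, how strongly and with which peak time. For comparison, 18 HFD mice of 4 weeks, whose dams ate a high-fat diet over the same period, and 18 Ctr mice of 16 weeks were used.

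Daily rhythms in the liver are driven by a molecular clock that runs in each hepatocyte and by feeding, which in mice falls mainly in the dark. In the clock, BMAL1 (encoded by Arntl) pairs with CLOCK or NPAS2 and binds E-boxes in promoters, where it activates the genes of its own repressors, the PER and CRY proteins. REV-ERB repressors (Nr1d1, Nr1d2) and ROR activators such as Rora compete for the elements that set the rhythm of Arntl, and the PAR bZIP factors DBP, TEF and HLF pass the rhythm on through D-boxes, which the repressor NFIL3 also binds. The liver is known for using these signals to time lipid, sterol, glucose and bile acid metabolism.

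The promoters of clock genes with a clock motif just before their start are shown, because the core clock is described below. Whether a motif goes with a stronger rhythm was not tested. Both strands were searched for the E-box CACGTG and for the D-boxes TTATGTAA and TTACGTAA, which share no overlap in the windows shown. Of 32851 RefSeq promoter windows of GRCm38.p6, 6.02% held the E-box in the 250 bases before the start, 0.819% the first D-box and 0.113% the second. Of the 24 core clock genes 20 had a window, and Per2, Bhlhe40 and Wee1 were among those with none. In the 250 bases before a start, 7 core genes held a match. Each line gives the gene, then the 250 bases before a RefSeq start on the strand of the gene, 5′ to 3′, with the E-box or D-box in capitals. A match is a description of these letters and not a measured binding site.
The Ciart window (chr3:95882229-95882478, minus strand) has 3 E-boxes, which begin 116, 58 and 44 bases before the start.
Ciart: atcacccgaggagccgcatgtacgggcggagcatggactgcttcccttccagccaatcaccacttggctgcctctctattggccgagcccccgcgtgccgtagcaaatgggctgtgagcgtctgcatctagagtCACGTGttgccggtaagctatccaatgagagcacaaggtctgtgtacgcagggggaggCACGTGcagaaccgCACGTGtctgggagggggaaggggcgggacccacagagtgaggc
The Cry1 window (chr10:85185055-85185304, minus strand) has an E-box 60 bases before the start.
Cry1: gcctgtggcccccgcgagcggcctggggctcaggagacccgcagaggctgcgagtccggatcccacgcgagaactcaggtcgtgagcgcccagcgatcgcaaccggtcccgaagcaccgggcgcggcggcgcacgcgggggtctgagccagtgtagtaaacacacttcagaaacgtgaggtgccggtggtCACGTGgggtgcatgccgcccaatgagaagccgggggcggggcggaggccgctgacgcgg
The Per1 window (chr11:69098699-69098948, plus strand) has an E-box 166 bases before the start.
Per1: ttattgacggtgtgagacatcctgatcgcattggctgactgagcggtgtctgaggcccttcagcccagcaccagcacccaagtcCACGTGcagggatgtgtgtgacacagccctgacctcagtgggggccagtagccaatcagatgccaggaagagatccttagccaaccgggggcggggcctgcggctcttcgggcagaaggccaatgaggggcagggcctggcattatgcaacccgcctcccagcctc
The Bhlhe41 window (chr6:145865421-145865670, minus strand) has an E-box 153 bases before the start.
Bhlhe41: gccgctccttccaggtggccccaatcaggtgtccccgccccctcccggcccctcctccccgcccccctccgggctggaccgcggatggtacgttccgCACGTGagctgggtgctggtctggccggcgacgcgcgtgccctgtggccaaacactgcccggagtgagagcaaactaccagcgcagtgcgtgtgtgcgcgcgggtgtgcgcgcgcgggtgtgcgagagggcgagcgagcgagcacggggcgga
The Per3 window (chr4:151044666-151044915, minus strand) has 2 D-boxes, 205 and 158 bases before the start.
Per3: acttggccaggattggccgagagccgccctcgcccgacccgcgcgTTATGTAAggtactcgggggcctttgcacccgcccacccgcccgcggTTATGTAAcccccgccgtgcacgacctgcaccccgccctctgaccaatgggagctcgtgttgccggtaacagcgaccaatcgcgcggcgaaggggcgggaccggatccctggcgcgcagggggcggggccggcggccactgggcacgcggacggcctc
Tef has an E-box in the windows of 2 starts, 127 bases before that at chr15:81802423-81802672 and 138 bases before that at chr15:81811164-81811413, both on the plus strand.
Tef: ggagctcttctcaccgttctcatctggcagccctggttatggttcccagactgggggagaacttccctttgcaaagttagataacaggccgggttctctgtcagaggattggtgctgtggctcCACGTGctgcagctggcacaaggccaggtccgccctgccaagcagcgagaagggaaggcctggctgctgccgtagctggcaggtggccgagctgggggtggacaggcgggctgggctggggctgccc
Tef: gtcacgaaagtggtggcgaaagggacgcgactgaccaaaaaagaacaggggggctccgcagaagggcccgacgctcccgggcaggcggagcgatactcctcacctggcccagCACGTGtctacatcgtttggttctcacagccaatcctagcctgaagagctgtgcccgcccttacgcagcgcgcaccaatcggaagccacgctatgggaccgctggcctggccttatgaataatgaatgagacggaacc
The Tspan4 window (chr7:141476130-141476379, plus strand) has an E-box 51 bases before the start.
Tspan4: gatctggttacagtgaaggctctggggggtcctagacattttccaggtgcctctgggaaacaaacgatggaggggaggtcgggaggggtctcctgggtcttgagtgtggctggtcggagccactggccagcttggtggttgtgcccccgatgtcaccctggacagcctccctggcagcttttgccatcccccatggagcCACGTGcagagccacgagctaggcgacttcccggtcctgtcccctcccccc

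The libraries held 16052067 to 19828715 counts each. Differences between the means of the 6 time points made up 51.6% of the variance of log2 expression between the mice. This share was not corrected for the number of time points. With few mice at each, such means hold a sizeable part of the variance even without any effect of time. The share due to time of day is therefore lower than 51.6% and was not estimated. Within time points, 1 library stood apart, replicate 3 at ZT17, with a loading of 0.718 on a component that held 26.2% of the variance left, opposite to replicate 1 at ZT17 (-0.518). Transcripts of the mitochondrial genome took 5.18 to 9.46% of the counts of a library, with 6.07 to 9.46% at ZT17, where replicate 3 was the highest, 5.44 to 8.04% at ZT1 and 5.21 to 5.48% at ZT13. Hepatocyte markers were abundant in every mouse, with a summed level of 108708 to 161684 CPM (counts scaled to equal library totals) over 6 genes including Alb. In bulk tissue, fewer cells of a type and less RNA per cell cannot be told apart.

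A 24 h rhythm was found in 1569 of 17154 genes tested (9.15%, edgeR's quasi-likelihood test of a cosine and sine term with Benjamini-Hochberg adjustment, adjusted p below 0.05), of which 1468 code for proteins. At an unadjusted p below 0.05 there were 3868. The strength of a rhythm is given as its amplitude, the distance on the log2 scale from the mean of the fitted curve to its peak, so that the distance from trough to peak is 2 amplitudes. The median amplitude was 0.51 among rhythmic genes (quartiles 0.39 and 0.77) and 0.26 among all genes tested. An amplitude of at least 0.5 was reached by 815 rhythmic genes (4.75% of genes tested), of at least 1 by 239 and of at least 2 by 41. Rhythmic genes held 18.3% of all CPM, and their median level was 22.8 CPM, against 6.31 CPM among all genes tested. The median standard error (SE) of a peak time was 0.830 h. Just inside the threshold were Mypop (adjusted p = 0.0497) and Sae1 (0.0499), and just outside it Smo and Gm30692 (both 0.05004).

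Peak times were spread over the whole day but were crowded in the middle of the light phase and late in the dark. The light phase held the peaks of 728 rhythmic genes (4.24% of genes tested) and the dark phase those of 841 (4.9%). By windows of 4 h, 214 genes peaked at ZT0 to 4, 317 at ZT4 to 8, 197 at ZT8 to 12, 206 at ZT12 to 16, 308 at ZT16 to 20 and 327 at ZT20 to 24. Within a single hour, the highest number was 96 (ZT20 to 21) and the lowest was 36 (ZT12 to 13), with another crest of 82 at ZT4 to 5. Amplitudes were largest in the window ZT4 to 8 (median 0.60, with 62.5% at or above 0.5) and smallest at ZT12 to 16 (median 0.43, with 37.9%). Leaving out ZT13 replicate 2 lowered the window ZT0 to 4 to 137 genes and ZT12 to 16 to 134, while without replicate 3 at ZT17 the count over all windows was 1939.

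**Figure D1:**
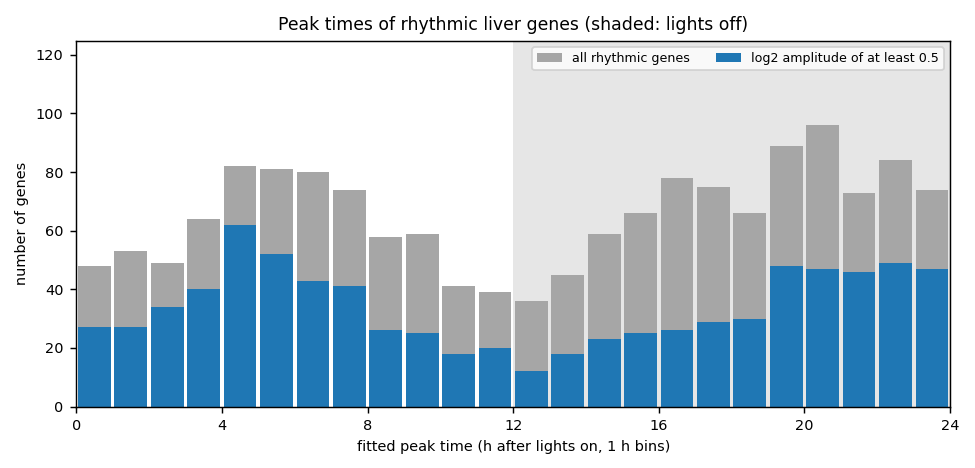
Peak time (h after lights on, in steps of 1 h) of the 1569 rhythmic genes on the horizontal axis and the number of genes on the vertical axis, with genes of a log2 amplitude of at least 0.5 as a separate bar part and the dark phase shaded. The bars are highest at ZT20 to 21 (96 genes), with another crest at ZT4 to 5 (82 genes), and lowest at ZT12 to 13 (36 genes).

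The core clock was strongly rhythmic, with 20 of 24 listed genes called (median amplitude of all 24, 1.49, against 0.26 over all genes tested). This count and those of the lists that follow stand beside 9.15% of all genes tested, made up of 4.24% with a peak in the light and 4.9% with one in the dark. The activators Arntl and Npas2 peaked late in the dark phase, the Rev-erb genes and Dbp in the light phase, and Per and Cry genes in turn through the dark. The list held 3 of 5 activators, 9 of 11 repressors and 8 of 8 output genes among the rhythmic genes, and without each single mouse in turn there were 3, 8 to 9 and 7 to 8. Without all mice of replicate number 2, which leaves 1 mouse at ZT9 and 1 at ZT13, there were 2, 2 and 4.

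Among the activators, Arntl (ENSMUSG00000055116, chr7:113207465-113314126), which encodes BMAL1, stood at 29.3, 33.2 and 32.9 CPM in the 3 mice of ZT21 and at 0.898 and 1.14 in the 2 mice of ZT9. All mice of ZT21, ZT1 and ZT17 were above all others, and the 2 mice of ZT9 were the lowest by a wide gap. The amplitude of Arntl was 1.70 ± 0.25 (SE, n = 16 mice) with a peak at 21.8 h (SE 0.528 h, adjusted p = 0.00538). Npas2 (chr1:39193731-39363236), the other partner of BMAL1, had 15.1, 13.1 and 11.2 CPM at ZT1, but 0 and 0.114 at ZT9 and 0 and 0.406 at ZT13. It had the largest amplitude of the core list (3.87 ± 0.26, peak 23.3 h), though with 1 mouse at 0 in each of ZT9 and ZT13 the depth of its trough is not well measured.

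Clock and Rora did not pass the test, though both did without the filter on low counts (amplitudes 0.51 and 0.35). Clock stood at 24.1 and 17.9 CPM in the 2 mice of ZT9 and at 62.8, 75.8 and 68.0 at ZT21, and every mouse of the other time points was above those of ZT9 (39.9 to 88.2 CPM). Its amplitude of 0.50 had an adjusted p of 0.187, while a fit with ZT as a factor, which takes any shape, gave an adjusted p of 0.00110. Rora had an amplitude of 0.34 (adjusted p = 0.343) and an adjusted p of 0.215 with ZT as a factor.

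The repressors peaked in sequence. Nr1d1 (chr11:98767932-98775333), which encodes REV-ERBα, came first, with 28.1, 55.2 and 83.7 CPM at ZT5 and 0.528, 1.74 and 0.167 at ZT21 (amplitude 3.14 ± 0.33, peak 6.74 h, adjusted p = 0.000216). Nr1d2, which encodes REV-ERBβ, peaked later, at 9.64 h (SE 0.342 h), with 134 and 143 CPM at ZT9 and 8.35, 8.47 and 8.62 at ZT21. In both genes the time points of highest and lowest mean did not overlap. Nr1d1 overlaps Thra on the genome, Per3 overlaps Camta1 and Dbp overlaps Sphk2, and since the strand setting of the counting is not stated, reads from these overlaps cannot be told apart. Of all 1569 rhythmic genes, 354 (22.6%) overlap a protein-coding gene.

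Ciart, a repressor of the CLOCK and BMAL1 pair whose window holds 3 E-boxes, stood at 12.6 and 14.5 CPM at ZT9 and at 0, 0.225 and 0.349 at ZT1 (amplitude 2.88 ± 0.44, peak 12.4 h). Per3, with 2 D-boxes in its window, had 38.5 and 29.5 CPM at ZT9 and 1.51, 1.18 and 1.16 at ZT1, with a peak at 13.3 h. The order was then Per1 (14.1 h), Cry2 (14.9 h), Per2 (15.9 h) and Cry1 (18.7 h), and with SEs of 0.517, 0.873, 0.612, 0.529 and 0.309 h neighbours in this order from Per3 to Per2 were less than 2 SEs apart. Per2 (chr1:91415982-91459324) reached 46.2, 42.8 and 33.2 CPM at ZT17 and 3.09, 10.1 and 7.04 at ZT5 (amplitude 1.46 ± 0.19). Cry1 (chr10:85131700-85185064) reached 61.7, 78.1 and 70.1 CPM at ZT21 and 5.87, 9.12 and 4.33 at ZT5 (amplitude 1.83 ± 0.14, adjusted p = 3.06e-06). The groups named here did not overlap for any of these genes.

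Per1 was weaker, with 54.0 and 42.3 CPM at ZT13, 11.9, 15.9 and 15.9 at ZT1 and an amplitude of 0.65 ± 0.15 (adjusted p = 0.0322). Without ZT1 replicate 2 or 3, ZT9 replicate 2, ZT13 replicate 2 or 3, or ZT17 replicate 1, Per1 was no longer past the threshold. Bhlhe41, which encodes the repressor DEC2, had low levels (2.08 and 2.33 CPM at ZT9 and 0, 0.113 and 0.175 at ZT1) and an amplitude of 1.96 ± 0.46. Nfil3 stood at 68.5, 70.2 and 67.1 CPM at ZT1 and 15.4 and 8.19 at ZT9 without overlap, but did not pass the test of a 24 h cosine (adjusted p = 0.140, against 1.52e-05 with ZT as a factor), except without ZT13 replicate 2 (amplitude 0.91) or without the filter on low counts (0.76). Bhlhe40, which encodes DEC1, did not pass under either (adjusted p = 0.464 and 0.438).

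Of the 8 output genes of the clock, all but Cdkn1a (peak 22.1 h) peaked around the change from light to dark. Dbp (chr7:45705088-45710203) had 215 and 236 CPM at ZT9 and 0.503, 0.451 and 0.349 at ZT1, the widest range of the output list (amplitude 3.41 ± 0.48, peak 10.3 h, adjusted p = 0.000665). Tef, with an E-box before each of 2 starts, stood at 213 and 194 CPM at ZT9 and 22.2, 23 and 35.4 at ZT1 (amplitude 1.32 ± 0.14, peak 12.3 h), and the remaining PAR bZIP gene, Hlf, had an amplitude of 0.56 ± 0.09. Their time points of highest and lowest mean did not overlap.

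The other output genes called were Nampt, Usp2, Wee1, Tspan4 and Cdkn1a. Nampt, the rate-limiting enzyme of NAD salvage, had 229 and 256 CPM at ZT13 and 52.8, 49.7 and 47.1 at ZT5 (amplitude 1.02 ± 0.10, peak 13.7 h). Wee1, a kinase that holds back entry into mitosis, had a peak at 13.4 h, and Usp2, a deubiquitinase, at 13.8 h. Cdkn1a, which encodes the cell cycle inhibitor p21, stood at 72.3, 93.9 and 104 CPM at ZT1 and 1.12 and 2.56 at ZT9 (amplitude 1.79 ± 0.35, adjusted p = 0.0277), and without ZT9 replicate 2, or with the replicate number as a block, it was no longer past the threshold.

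**Figure D2:**
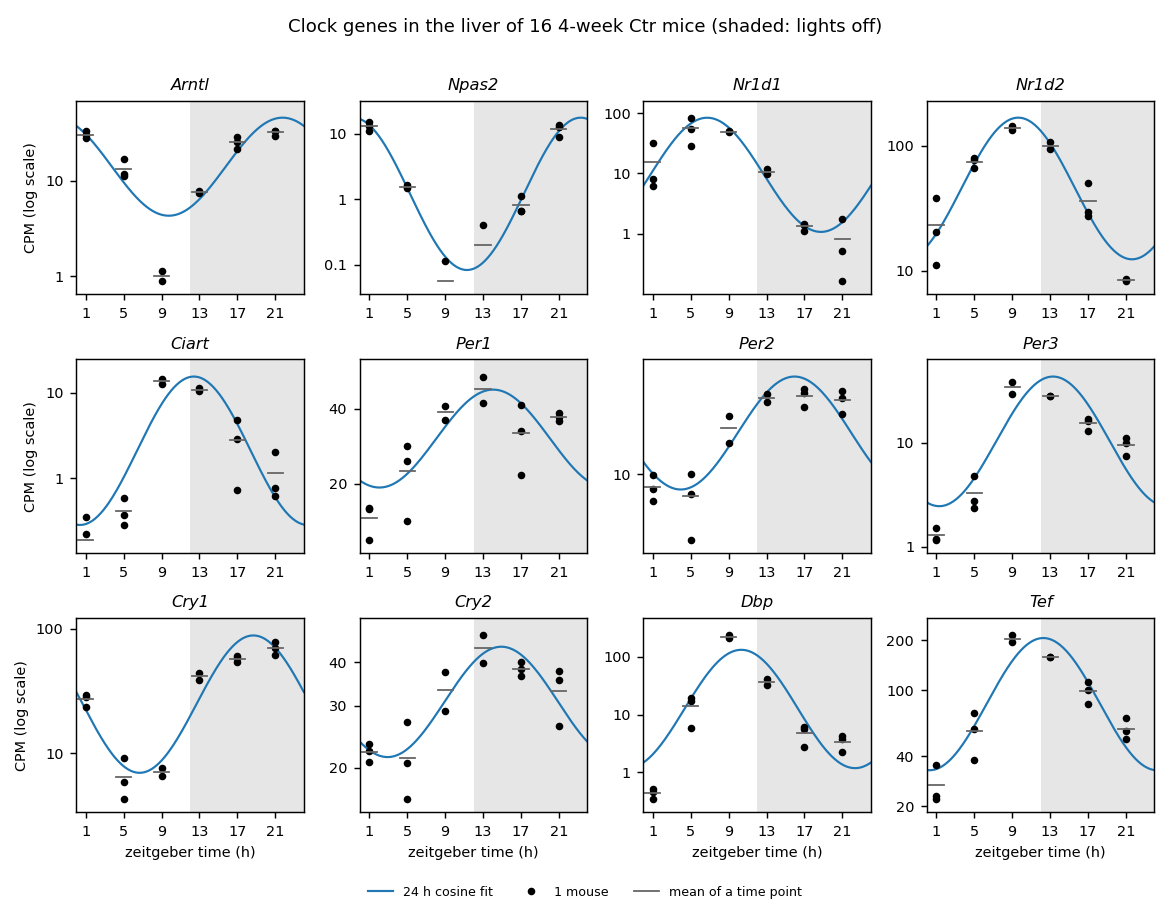
CPM on a log axis against ZT in h for 12 clock genes, with 1 black point per mouse (n = 2 or 3 per time point), a grey bar for the mean of a time point, the fitted 24 h cosine in blue and the dark phase shaded. Mice at 0 CPM (1 mouse of Npas2 at ZT9, 1 at ZT13 and 1 of Ciart at ZT1) cannot be drawn on a log axis, and Arntl at ZT9 (0.898 and 1.14 CPM) lies below its fitted curve.

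Genes of lipid and sterol synthesis peaked in the dark. Of 18 genes of fatty acid and triglyceride synthesis, 10 were rhythmic, 9 of them with a peak in the dark (median amplitude of the 18, 0.59). Thrsp, a gene induced with lipogenesis, had 1499, 1283 and 529 CPM at ZT17 and 56.4, 161 and 148 at ZT5, without overlap although replicate 3 was far below the other mice of ZT17 (amplitude 1.49 ± 0.25, peak 16.6 h, adjusted p = 0.0126). Acacb, an acetyl-CoA carboxylase, peaked at 19.4 h, Gpam, which adds the first acyl chain to glycerol 3-phosphate, at 21.6 h, and Pnpla3 (amplitude 1.85 ± 0.36) at 20.8 h. Elovl5, an elongase of polyunsaturated fatty acids, was the exception, with 589.7, 889 and 779 CPM at ZT1, 263 and 228 at ZT13 and a peak at 1.11 h. Srebf1, the lipogenic regulator, passed the test narrowly (adjusted p = 0.0486), and Fasn, Acaca, Scd1, Elovl6, Me1, Mlxipl, Lpin1 and Fads1 did not pass.

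All 13 rhythmic genes among 24 of cholesterol synthesis and uptake peaked in the dark, 8 at ZT16 to 20 and 5 at ZT20 to 24 (median amplitude of the 24, 0.45). They run along the pathway, from Mvd through Fdps, Fdft1, Sqle and Lss to Dhcr7, and include the regulators Srebf2 and Insig1. Lss, which closes the sterol rings, stood at 147, 141 and 169 CPM at ZT21 and 52.4 and 36.1 at ZT9 (amplitude 0.86 ± 0.13, peak 20.1 h, adjusted p = 0.000434). All 3 mice of ZT21 were above every other mouse for Lss. Without ZT21 replicate 1 the count was 8, as it was without ZT21 replicate 2.

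Among 20 genes of bile acid synthesis and transport 8 were rhythmic, 4 in each phase (median amplitude of the 20, 0.28). Cyp7a1, the rate-limiting enzyme of the classical pathway, had 227, 504 and 820.1 CPM at ZT17 and 41.9, 17.5 and 31.2 at ZT1 (amplitude 1.55 ± 0.35, peak 14.6 h, adjusted p = 0.0430). The lowest mouse of ZT17 was above all 3 of ZT1, but the 3 mice of ZT17 were far apart, and without any of 13 of the 16 mice Cyp7a1 fell short of the threshold (the exceptions were ZT5 replicate 3, ZT17 replicate 1 and ZT21 replicate 3). The transporters that were called peaked in the light, with Abcb11, the bile salt export pump, at 0.768 h (681, 972 and 954 CPM at ZT1 and 353 and 295 at ZT13, amplitude 0.67 ± 0.07). The sterol exporters Abcg8 and Abcg5, which overlap each other, peaked at 7.37 h and 9.17 h.

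Of 23 genes of fatty acid oxidation and PPARα targets 4 were called (17.4%, against 9.15% of all genes tested, median amplitude 0.25). Cpt1a, which carries long acyl chains into mitochondria, had 479 and 549 CPM at ZT13 and 165, 162 and 146 at ZT21 (amplitude 0.80 ± 0.09, peak 8.97 h, adjusted p = 1.40e-05). Plin2, a coat protein of lipid droplets, peaked at 3.05 h, and Acot1, an acyl-CoA thioesterase, at 18.5 h. Fgf21, a fasting hormone, was called at low levels (2.56, 0.287 and 3.79 CPM at ZT5 and 0 and 0.290 at ZT13) and those time points overlapped. Without ZT5 replicate 3, ZT9 replicate 1 or 2, ZT13 replicate 3 or ZT21 replicate 3 the count was 2.

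Of 18 genes of glucose and glycogen metabolism 10 were rhythmic (median amplitude of the 18, 0.50). By 4 h windows, 4 peaked at ZT8 to 12, 3 at ZT12 to 16, 2 at ZT16 to 20 and 1 at ZT20 to 24. Gys2, the liver glycogen synthase, stood at 285 and 382 CPM at ZT9 and 76.3, 107 and 101 at ZT1 (amplitude 0.87 ± 0.11, peak 11.3 h), Ugp2, which makes UDP-glucose, peaked at 9.31 h and the glucose transporter Slc2a2 at 10.1 h. Other glycogen genes peaked later, Gbe1, the branching enzyme, at 14.6 h and Ppp1r3b at 20.6 h, and Pygl and Ppp1r3c did not pass. Ppp1r3g, a glycogen-targeting subunit of protein phosphatase 1, had 51.5 and 78.0 CPM at ZT13 and 0.240, 0.561 and 1.72 at ZT21 (amplitude 2.53 ± 0.52, adjusted p = 0.0260), and without ZT21 replicate 2 or 3 it was no longer past the threshold. Pfkfb1, which sets the level of fructose 2,6-bisphosphate, peaked at 18.4 h. Pck1 and G6pc, the key enzymes of gluconeogenesis, did not pass.

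**Figure D3:**
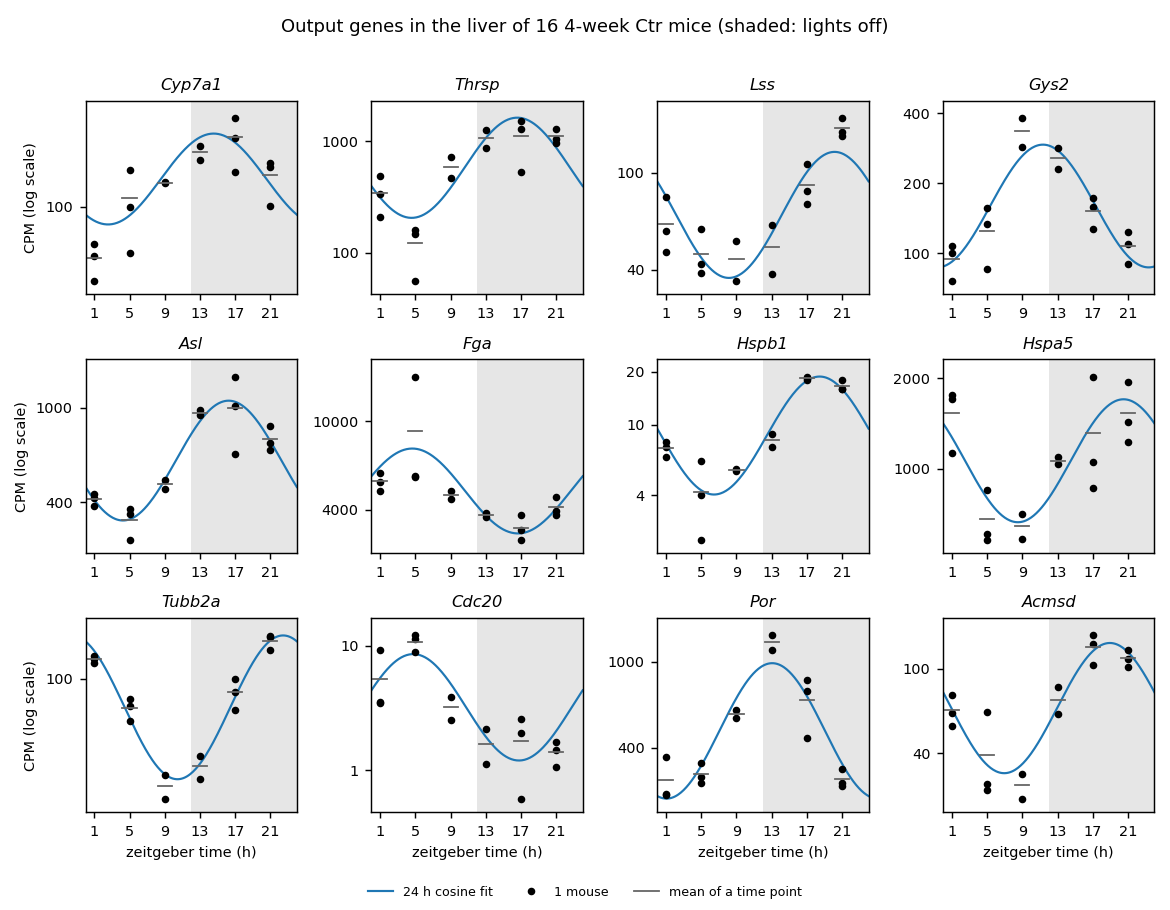
CPM on a log axis against ZT in h for 12 genes of metabolism, protein folding, the cytoskeleton and the cell cycle, with 1 black point per mouse, a grey bar for the mean of a time point, the fitted 24 h cosine in blue and the dark phase shaded. The fitted peaks of Thrsp (16.6 h) and Hspb1 (18.4 h) lie in the shaded part and that of Cdc20 (4.76 h) in the light. Hspa5 has its fitted peak in the shaded part but is also high at ZT1, in the light. The single high point of Fga at ZT5 is replicate 1.

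Amino acid catabolism and the urea cycle had 10 rhythmic genes of 22 (median amplitude of the 22, 0.37), 7 of them with a peak in the dark. The urea cycle genes Asl, Cps1 and Ass1 were among these, with Asl at 1349.9, 1011 and 636 CPM at ZT17 and 374, 359 and 279 at ZT5 (amplitude 0.84 ± 0.08, peak 16.3 h, adjusted p = 1.35e-06), Cps1 at a peak of 18.6 h and Ass1 at 20.1 h. Agxt, which clears glyoxylate, and Cbs, which starts transsulfuration, peaked in the light instead, at 4.02 h and 1.12 h. Otc and Arg1, also of the urea cycle, and Tat did not pass.

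In xenobiotic metabolism 5 of 24 genes were rhythmic, all with a peak in the dark (20.8%, against 4.9% of all genes tested, median amplitude of the 24, 0.32). Por, the reductase that feeds electrons to microsomal cytochromes P450, had 1329 and 1138 CPM at ZT13 and 239.6, 362 and 243 at ZT1 (amplitude 1.05 ± 0.11, peak 13.1 h, adjusted p = 2.53e-06). Cyp2a5 (peak 13.5 h, amplitude 1.13 ± 0.13) has near-identical relatives that may share its reads, so its value is uncertain. Alas1, Cyp1a2, Nr1i2 and Nr1i3 did not pass.

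NAD metabolism had 5 rhythmic genes of 21 (median amplitude of the 21, 0.23). Beside Nampt these were Nmrk1, which phosphorylates nicotinamide riboside (peak 13.3 h), Nadsyn1 (7.23 h) and 2 genes of tryptophan breakdown, Acmsd and Afmid. Acmsd, which diverts the pathway away from NAD, stood at 105, 144 and 132 CPM at ZT17 and 31.9 and 24.4 at ZT9 (amplitude 1.02 ± 0.11, peak 18.9 h). In the insulin and growth hormone list 4 of 16 were called (median amplitude of the 16, 0.36), among them Stat5b, which carries the growth hormone signal (peak 1.25 h), and Igf1, the secreted growth factor it induces (peak 18.3 h, amplitude 0.31 ± 0.08).

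Most rhythmic genes of the chaperone lists had a fitted peak in the dark. All 13 rhythmic heat shock genes of 21 listed peaked in the dark, 12 of them at ZT16 to 20 (median amplitude of the 21, 0.46). Hspb1, a small heat shock protein, stood at 17.9, 18.4 and 18.6 CPM at ZT17 and 2.24, 4.01 and 6.23 at ZT5 (amplitude 1.11 ± 0.11, peak 18.4 h, adjusted p = 8.32e-07). Hsp90aa1 (19.2 h) and Hsph1 (17.9 h) had amplitudes of 0.83 and 0.83, and Hspa8, the constitutive form, 0.39. Hsf1, the regulator of the response, and the inducible Hspa1a and Hspa1b did not pass. The cold-induced RNA-binding genes Cirbp and Rbm3, both called, peaked in the light, at 6.53 h and 10.4 h, with amplitudes of 0.66 and 0.68.

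In the list of the unfolded protein response and chaperones of the endoplasmic reticulum (ER) 12 of 25 genes were rhythmic (median amplitude of the 25, 0.39). Of these 12, 8 peaked at ZT20 to 24 and 1 at ZT16 to 20. The other 3 peaked in the light, 1 at ZT0 to 4 and 2 at ZT4 to 8. Hspa5, the chaperone BiP, had 1761, 1131 and 1711 CPM at ZT1 and 711 and 584 at ZT9 (amplitude 0.68 ± 0.13, peak 20.5 h, adjusted p = 0.00819). Hyou1, Sdf2l1 and Manf, which assist folding in the ER, peaked at 20.7, 23 and 21.0 h. Trib3 and Chac1, which are induced by ATF4 rather than encoding chaperones, peaked in the light, at 5.86 h and 7.03 h, with Chac1 at 7.63, 6.64 and 7.58 CPM at ZT5 and 1.54, 1.07 and 1.72 at ZT21.

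Cytoskeletal genes were high around the end of the dark phase, with 9 of 17 genes called and all 9 peaks between 20.4 h and, past lights on, 1.70 h (median amplitude of the 17, 0.44). Tubb2a, a β-tubulin, stood at 168, 215 and 213 CPM at ZT21 and 17.7 and 11.6 at ZT9 (amplitude 1.87 ± 0.11, peak 22.4 h, adjusted p = 3.35e-09). Actb, often used as a reference gene, had 663, 718 and 590.2 CPM at ZT21 and 301 and 252 at ZT9 (amplitude 0.60 ± 0.08). Tubulin genes are close copies of each other, so how their reads were assigned may affect single members.

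Ribosome biogenesis had 10 rhythmic genes of 30, 8 of them with a peak in the dark (median amplitude of the 30, 0.27). Rrp12, a factor of ribosomal subunit export, had 23 and 19.7 CPM at ZT13 and 6.12 and 6.20 at ZT9 (amplitude 0.73 ± 0.15, peak 16.1 h). The count was 5 without ZT13 replicate 2 and 6 without ZT1 replicate 1, ZT9 replicate 1, ZT17 replicate 2 or ZT21 replicate 2. Among autophagy genes 7 of 22 were called (median amplitude of the 22, 0.27), with Ulk1, the kinase that starts autophagy, at 171, 180.2 and 189 CPM at ZT5 and 70.4, 70.2 and 58.9 at ZT17 (amplitude 0.72 ± 0.08, peak 6.41 h). Gabarapl1, which coats the autophagosome, peaked at 6.13 h and Bnip3, a receptor for mitophagy, at 12.9 h.

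Genes of cell division peaked in the light. Of 24 genes of S phase and of G2 and M phase, 14 were rhythmic, 13 of them with a peak in the light, 10 at ZT4 to 8 (median amplitude of the 24, 0.82). Cdc20, an activator of the anaphase-promoting complex, had 12.1, 11.3 and 8.82 CPM at ZT5 and 1.44, 1.07 and 1.67 at ZT21 (amplitude 1.42 ± 0.22, peak 4.76 h, adjusted p = 0.000517). Mki67, the general marker of cycling cells, had 19.1, 18.9 and 17 CPM at ZT5 and 3.43, 6.17 and 4.33 at ZT17 (peak 4.01 h), and the mitotic genes Ccnb1, Ccnb2, Cdk1, Top2a, Plk1, Aurkb, Bub1 and Birc5 peaked between 3.43 and 6.11 h. Ccne2, a cyclin of the entry into S phase, stood at 5.81 and 6.15 CPM at ZT13 and 1.66, 1.13 and 2.09 at ZT1 and peaked at 14.1 h, while Pcna and the 6 listed Mcm genes, which load and drive replication forks, did not pass.

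Type I interferon targets had 6 rhythmic genes of 21, all with a peak in the light (median amplitude of the 21, 0.45), led by Isg15 with 8.30, 8.00 and 10.9 CPM at ZT1 and 2.76, 2.80 and 2.76 at ZT17 (amplitude 0.73 ± 0.15, peak 4.47 h). Without ZT13 replicate 2 the count was 3. Of 12 genes induced by glucocorticoids 4 were called (median amplitude of the 12, 0.52), with Fkbp5, a cochaperone of the glucocorticoid receptor, at 294 and 264 CPM at ZT13 and 49.8, 44.5 and 54.5 at ZT5 (amplitude 0.94 ± 0.19, peak 15.5 h).

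Cells other than hepatocytes were checked beside the cell cycle and interferon groups. B cell markers were rhythmic for 2 of 5 genes, Ighm (peak 0.582 h) and Ms4a1 (3.32 h), and their summed level was 9.97 to 14.7 CPM at ZT1, 8.72 to 9.60 at ZT5, 5.05 to 9.67 at ZT9, 3.05 to 4.06 at ZT13, 2.36 to 7.72 at ZT17 and 9.31 to 14.7 at ZT21. The B cell sum was thus as high at ZT21, in the dark, as at ZT1, and without any of 12 of the 16 mice only 1 of the 5 was rhythmic (the exceptions were both mice of ZT9, ZT17 replicate 2 and ZT21 replicate 1). Kupffer cell and macrophage markers, with 0 of 7 rhythmic, summed to 391 to 489 CPM at ZT1 and 230.2 to 437.6 at ZT17, and 1 of 7 was called without ZT17 replicate 1 or ZT21 replicate 2. No marker of endothelial cells (0 of 7), stellate cells (0 of 7), T and NK cells (0 of 6), erythroid cells (0 of 7) or neutrophils (0 of 4 tested) was rhythmic. The sum of the T and NK cell markers was nevertheless higher in all 3 mice of ZT1 (3.55 to 6.74 CPM) than in any other mouse (at most 3.31), and that of the neutrophil markers was 1.76 to 3.32 CPM at ZT1, 1.54 to 3.13 at ZT17 and 0.168 to 1.10 at ZT21. Of the cholangiocyte markers 1 of 5 was, Sox9 (peak 23.7 h, 2 of 5 without ZT17 replicate 3), and of those of intestinal epithelium 1 of 3 tested was, Lgals4, with a peak in the light (6.74 h) that was no longer past the threshold without any of 9 mice (ZT5 replicate 2, both mice of ZT9, ZT13 replicate 2, ZT17 replicates 1 and 3 and the 3 mice of ZT21). Of the markers of pancreatic acinar cells 6 of 8 were at 0 in all 16 mice, as were 3 of 5 of adipocytes and 2 each of neutrophils and of intestinal epithelium. The part of these cells in the light-phase peaks was not tested.

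**Figure D4:**
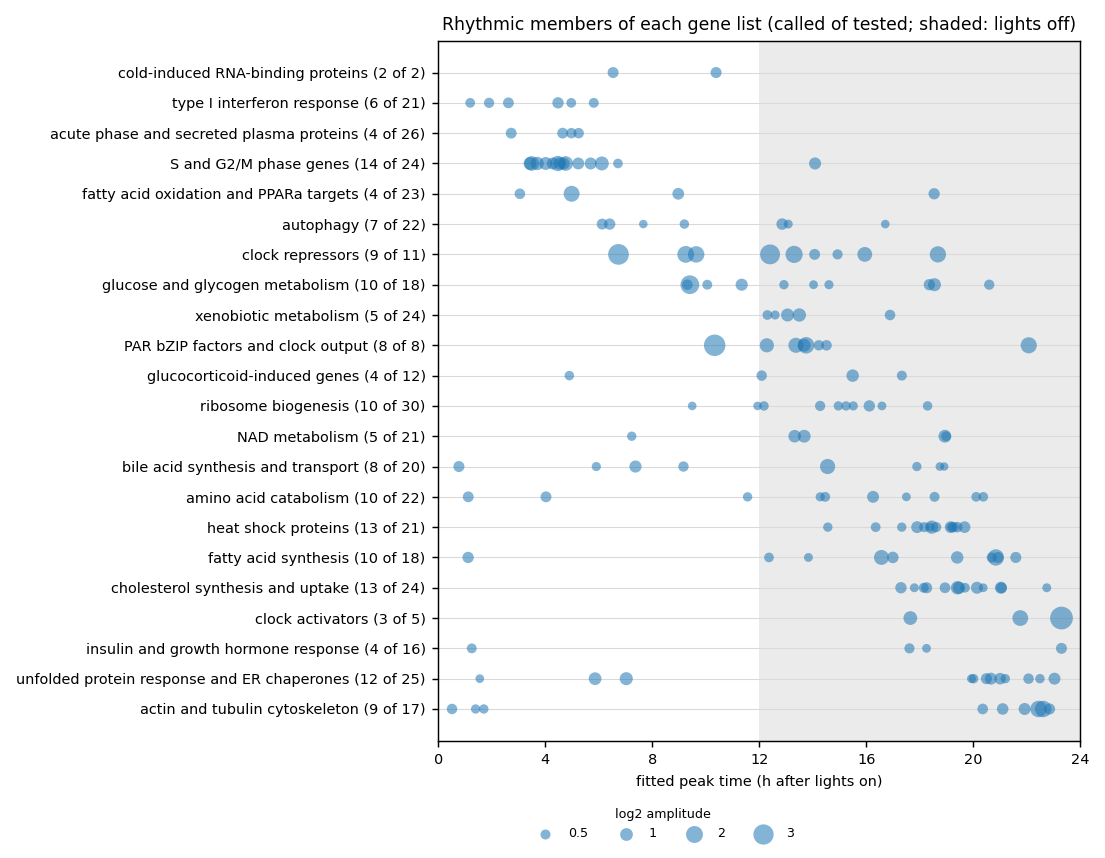
Peak time in h after lights on (horizontal axis) of each rhythmic gene of each list (vertical axis), with 1 point per gene, larger for a larger log2 amplitude, and the dark phase shaded. The points of heat shock and cholesterol genes all lie in the dark phase, and 13 of 14 points of the S and G2/M phase list lie in the light.

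Several housekeeping families held no rhythmic gene, against 9.15% of all genes tested. Of 77 cytosolic ribosomal protein genes 0 were called by edgeR's quasi-likelihood test and 0 had an unadjusted p below 0.05 (median amplitude 0.11). Of 79 nuclear genes of the respiratory chain 0 were called and 4 had an unadjusted p below 0.05 (median amplitude 0.14). Of the 13 genes encoded by mitochondrial DNA 0 were called and 3 had an unadjusted p below 0.05 (median amplitude 0.28). Among all genes tested, 3868 of 17154 had an unadjusted p below 0.05. In a family of 13, a count of 0 called is near the share over all genes and is no result about it. All 3 medians stand beside 0.26 over all genes tested. DESeq2 called 0, 1 and 1 members of these families. Without replicate 3 at ZT17 edgeR called 2 of the respiratory chain, and without ZT1 replicate 3 or ZT9 replicate 1 it called 1 of the genes of mitochondrial DNA.

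Among the 50 most abundant genes of these livers 13 were rhythmic. With all mice, the largest amplitudes were those of the fibrinogen chains, neighbours on chromosome 3, of which Fga stood at 15838, 5609.9 and 5661 CPM at ZT5 and 3224, 3769.8 and 2930.4 at ZT17 (amplitude 0.63 ± 0.13, peak 4.65 h, adjusted p = 0.00718). The value of ZT5 replicate 1 was far above all other mice for Fga, Fgb (12817, 4119 and 4371 CPM at ZT5) and Fgg (13034, 4053 and 4355). Without that mouse the amplitudes were 0.39, 0.32 and 0.29 in place of 0.63, 0.58 and 0.56, below the 0.51 of Bhmt without it, and all 3 were still called. Fgb was lost without ZT17 replicate 1, with DESeq2 and with the replicate block, and Fgg without any of 10 other mice, with DESeq2, with limma-voom and with the block. In the whole list of 26 acute phase and secreted plasma proteins 4 were called (15.4%, against 9.15% of all genes tested, median amplitude of the 26, 0.21), the fibrinogen chains and Amdhd1, an enzyme of histidine breakdown rather than a plasma protein, and without ZT17 replicate 1 there were 2. Alb, Ttr, Apoa1 and Saa1 did not pass. Bhmt, which makes methionine from betaine, had 4041, 3876 and 4706 CPM at ZT21 and 1681 and 2032 at ZT13, with a peak at 21.3 h.

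The largest amplitudes of each 4 h window, among protein-coding genes of at least 10 CPM on average, included genes of none of the lists. At ZT0 to 4 these were Spon2, Ndrg1, Klf10, St5 and Tymp, led by Spon2, a secreted matrix protein, with 19.7, 24.4 and 12.3 CPM at ZT1 and 1.17 and 1.39 at ZT13 (amplitude 1.63 ± 0.22). At ZT4 to 8 Nr1d1 was followed by Serpina7, the thyroxine-binding globulin (amplitude 1.17 ± 0.18), Casp6, Klhdc7a and Pcbp4, and at ZT8 to 12 Dbp, Ppp1r3g and Nr1d2 by Gpcpd1, a phosphodiesterase of phospholipid breakdown (1.38 ± 0.15), and Gadd45g. At ZT12 to 16 the genes were Per3, Usp2, Fmo2, Cyp7a1 and Wee1, where Fmo2, a flavin monooxygenase, had 78.2, 103 and 126 CPM at ZT17 and 10.9, 12.6 and 13.6 at ZT1. Those of ZT16 to 20 included Cry1, Acnat2, Thrsp and Tfrc, of which Tfrc, the transferrin receptor, stood at 189.7, 194 and 205 CPM at ZT17 and 31.6, 27.7 and 11 at ZT5 (amplitude 1.34 ± 0.21). Late in the dark, at ZT20 to 24, they were Loxl4, Chrna4, Tubb2a, Cdkn1a and Ppard. Loxl4, a lysyl oxidase, had 16.3, 27.9 and 23.9 CPM at ZT21 and 0.470 and 1.05 at ZT13 (amplitude 2.76 ± 0.19, peak 23.8 h, adjusted p = 1.46e-07). Ppard, a lipid-sensing nuclear receptor, had 53.7, 54.5 and 57.5 CPM at ZT21 and 6.68 and 4.38 at ZT9. None of the highest and lowest time points given in these sentences overlapped.

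A cosine of 24 h was not the whole shape for 50 genes (0.291% of 17154 genes tested), for which a 12 h component added to the 24 h terms passed edgeR's quasi-likelihood test, with 1445 at an unadjusted p below 0.05. Of these 50, 20 were also 24 h rhythmic, and in 26 the 12 h amplitude was larger than the 24 h amplitude. In 25 of the 50 the 12 h peaks fell within 0 to 3 h and 12 to 15 h, shortly after each change of light. They fell within 3 to 6 h and 15 to 18 h in 7, and within 6 to 12 h and 18 to 24 h in 18. The share of all genes tested in these hours was not counted. With samples every 4 h, a 12 h component cannot be told apart from some shorter ones. The count depended on single mice, as 23 genes were found without ZT13 replicate 2 and 122 without replicate 3 at ZT17, not all of them among the 50. Leaving out any of 8 other mice also moved it by more than 1.5 times (ZT1 replicates 2 and 3, both mice of ZT9, ZT13 replicate 3 and the 3 mice of ZT21).

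Zbtb16, which encodes the transcription factor PLZF and is induced by glucocorticoids, had the largest 12 h amplitude among genes of at least 10 CPM. It stood at 34.0, 36.7 and 37.8 CPM at ZT1 and 26.7 and 29.6 at ZT13, but at 4.66 and 3.41 at ZT9 and 8.49, 3.09 and 6.34 at ZT21, so that both times after a change of light were above all other mice. Its 12 h amplitude was 1.56 ± 0.14 (SE, adjusted p = 3.63e-05) with peaks at 1.88 and 13.9 h, and its 24 h rhythm did not pass (adjusted p = 0.912). Next were Dbp (12 h amplitude 1.52), Per3 (0.98), Chrna4 (0.95) and Usp2 (0.94), all with a 24 h rhythm too. Fkbp5, with a 12 h amplitude of 0.68 (adjusted p = 0.000515), had its highest values at ZT13.

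**Figure D5:**
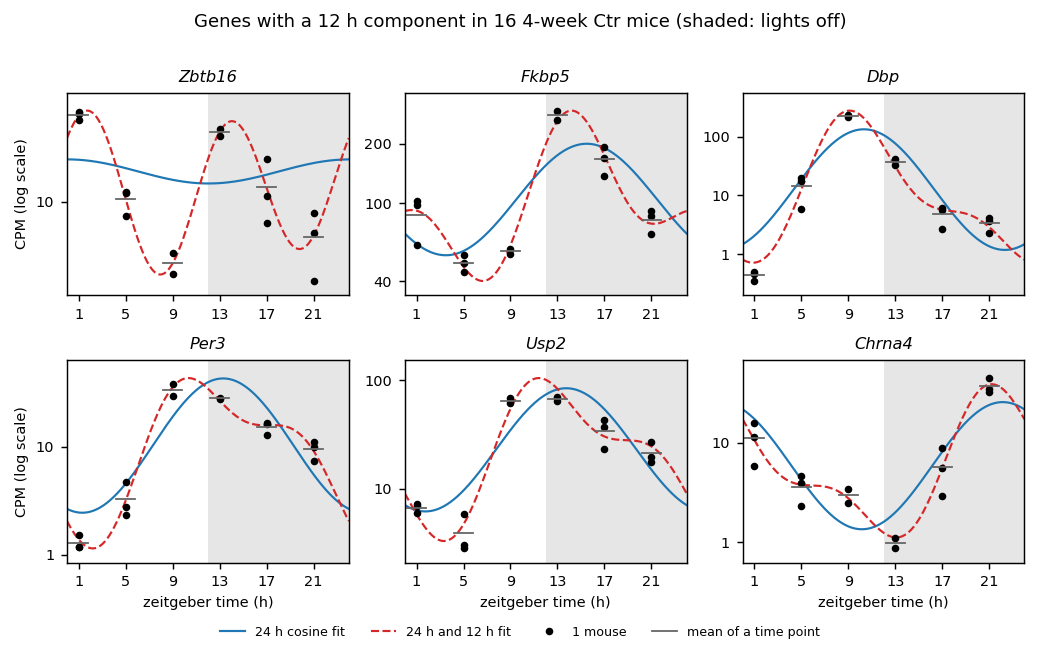
CPM on a log axis against ZT in h for Zbtb16, Fkbp5, Dbp, Per3, Usp2 and Chrna4, which had a 12 h component, with 1 black point per mouse, a grey bar for the mean of a time point, the 24 h fit in blue, the fit with 24 and 12 h terms as a dashed red curve and the dark phase shaded. The points of Zbtb16 are high at ZT1 and at ZT13 and low at ZT9 and ZT21.

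No gene's rhythm was shown to differ from that in the other groups. Against the 18 HFD mice of the same age, 0 of 16776 genes (0%) had a rhythm that differed with maternal diet by edgeR's quasi-likelihood test of an interaction term, with 353 at an unadjusted p below 0.05, and DESeq2 and limma-voom also called 0. The labels of 1 of these 18, ZT21 replicate 3, disagree, with 4 weeks in the title and 16 weeks in the age field. It was grouped by its title, and without it edgeR also called 0, with 349 at an unadjusted p below 0.05 (a fit added after seeing the data). None of the 24 core clock genes had an unadjusted p below 0.05, the lowest being 0.262 for Per3. Against the 18 Ctr mice of 16 weeks, 0 of 16831 genes (0%) passed the same test for age, with 1421 at an unadjusted p below 0.05. DESeq2 called 21 and limma-voom 0. The 2 ages come from separate count tables, so age and table cannot be told apart.

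The clock genes of lowest p in the test for age, and the 2 of 24 with an unadjusted p below 0.05, were Per2 and Nr1d2. Per2 peaked at 15.9 h at 4 weeks and 14 h at 16 weeks, a shift of -1.90 h ± 0.634 (SE, unadjusted p = 0.0158, adjusted p = 0.470). Nr1d2 peaked at 9.66 h and 8.59 h, a shift of -1.07 h ± 0.462 (SE, unadjusted p = 0.0244, adjusted p = 0.513). Of the 20 core genes that were rhythmic at 4 weeks, 15 had an earlier peak time at 16 weeks, with a median shift of -0.57 h and a range from -2.63 h (Per1) to 0.51 h (Bhlhe41), but no single shift passed the adjusted test. The HFD mice of 4 weeks also had earlier peak times than Ctr in 15 of the 20, with a median shift of -0.39 h. Both comparisons share the same 16 mice, so the shifts are not independent of each other.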

How the data were processed

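Liver mRNA of 16 4-week Ctr mice, 18 4-week HFD mice and 18 16-week Ctr mice was used. The deposited values are read counts per gene, without normalization, which the authors made with HISAT2 2.0.5 on GRCm38/mm10 and featureCounts 1.5.0-p3 with the annotation of Ensembl release 94, for 54532 genes. Whether counting used strand is not given in the sources used here. In the tables, 2 columns without a sample were not used. No libraries held identical values.

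Fitted were genes with counts above 0 in 50% or more of the mice, with edgeR 4.0.16 (R 4.3.3, TMM normalization, quasi-likelihood F test of 24 h cosine and sine terms, Benjamini-Hochberg adjustment over all genes tested). Amplitude and peak time come from the 2 coefficients, with errors by the delta method. Interaction terms tested differences in rhythm between groups. CPM are counts scaled to the normalized library total. P-values measure the spread between mice, each sampled once. The scripts were tested on simulated data. DESeq2 1.42.0 and limma 3.58.1 served as alternatives.

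Genes named are the core clock lists, the 5 largest amplitudes of each 4 h window of peak time (mean of at least 10 CPM, protein-coding), rhythmic members of fixed lists with the lowest p, the 5 largest 12 h amplitudes and abundant genes. The mice, lists and tests were chosen with earlier results of these data known. Promoters came from RefSeq (GRCm38.p6). A comparison of motif shares between peak times was void, since only 76.2% of rhythmic genes had a promoter window. A few genes that the rule selects are not reported here.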

Additional observations from a re-analysis of the deposited data

How the results depend on the processing

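The number of rhythmic genes (1569) was 717 at an adjusted p below 0.01, 2391 with DESeq2 (1554 of the 1569 among them), 2539 with the first residual component as a covariate and 2461 without the filter on low counts, against 1595 and 1569 with RLE and upper-quartile scaling, 1639 with limma-voom, 1680 with filterByExpr and 1303 with ZT as a factor (969 shared). Genes with an amplitude of at least 0.5 (815) numbered 472 at an adjusted p below 0.01 and 1281 without the filter. The 12 h component (50 genes) was found in 14 genes at an adjusted p below 0.01, 223 with DESeq2, 206 with the covariate and 543 without the filter. The difference in rhythm with age (0 genes) gave 21 with DESeq2, 5 with the covariate and 8 without the filter. Leaving out single mice, or all mice of a replicate number, gave 212 to 1939 rhythmic genes, 212 to 852 of at least 0.5 in amplitude, 2 to 122 with a 12 h component, 0 to 1 for maternal diet (1 without replicate 3) and 0 to 0 for age. The lowest counts came without replicate 2 (212 rhythmic genes and 2 with a 12 h component), which leaves 1 mouse at ZT9 and 1 at ZT13. With the replicate number as a block there were 1440 rhythmic genes (1373 shared), 772 of at least 0.5, 41 with a 12 h component (36 shared) and 0 differences for diet and age. The main fit did not take the numbers as pairing the mice, but whether they do is not settled. The median correlation of deviations was -0.00503 over 35 pairs of the same number and -0.000363 over 71 pairs of different numbers. Of the 35 pairs, however, 4 were above 0.1, with a highest value of 0.420. In addition, 8 of 16 mice correlated best with a mouse of their own number. Over 58 named genes and their alternatives, 1441 of 1565 results kept their side of the threshold, 120 were no longer past it and 4 were newly past it. The cause of these differences was not tested. With 2 or 3 mice at each time point, rhythms of low amplitude in genes of few counts are the least well resolved.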

Other observations

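Further genes had a 12 h component with more than 1 high time point, among them Il6ra, a subunit of the interleukin 6 receptor, named after its values were seen. Its 12 h amplitude was 0.67 ± 0.08 (SE, n = 16 mice, adjusted p = 0.000977, edgeR), with peaks at 2.01 and 14 h, and its 24 h rhythm had an adjusted p of 0.690. Arntl (0.85) and Nfil3 (0.70) also had a 12 h component. Those of Nfil3 and Il6ra peaked within 0 to 3 h and 12 to 15 h, as did those of Zbtb16 and Fkbp5, and that of Arntl at 3.43 and 15.4 h.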
